A study of Mus musculus with 8 samples.

Results

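The odour-coupled G protein and its cyclase were followed through 8 genes, taken by name from the 25913 genes of the deposited count table. They were Gnal, Gnas, Gnb1 and Gng13 (G protein subunits), Ric8b (an exchange factor), Adcy3 (adenylyl cyclase 3), Arrb2 (beta-arrestin 2) and Adrbk2 (a receptor kinase, also named Grk3), and all 8 passed the filter on low counts. Poly(A) RNA came from the dissected olfactory epithelium of C57BL/6J mice at 40 weeks of age, with no treatment given in the labels, and the stated design sets a tissue-specific, homozygous knockout of the insulin-like growth factor 1 receptor against controls. Libraries titled IGF1R_flfl (replicates 1, 2, 13 and 3) carry the genotype OMPIGF1 (KO), and libraries titled OMP_IGF1R (replicates 11, 12, 17 and 18) carry the genotype OMPflfl (Ctrl). Title and genotype thus contradict each other, so the groups are called by title and no change below is assigned to knockout or control. The labels describe neither the driver allele nor the animals behind each library, and the p-values therefore speak only of spread among the libraries at hand, which may be technical. The numbers that open the titles fall in separate ranges for each group, and a batch that follows them cannot be told apart from the group.

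In a mature olfactory neuron, an odorant receptor activates the stimulatory alpha subunit Golf, the product of Gnal, which sits on the ciliary membrane with a beta and a gamma subunit. Golf switches on adenylyl cyclase 3, and the cyclic AMP that it makes opens a cyclic nucleotide-gated channel. Ric8b helps Golf to accumulate and signal, and receptor kinases and arrestins end the response of an activated receptor. Gs, the product of Gnas, is the close relative of Golf that serves most other cells.

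Promoter windows are shown for Gng13 and Ric8b, which fell, and for Gnb1, whose difference missed the test threshold. Of the 8 members, 5 were in the RefSeq promoter table (GRCm38.p6), and Gnal, Arrb2 and Adrbk2 were not. Where several starts were listed, the one of lowest coordinate was taken, or of highest coordinate for Gnas. This choice was made here and does not mark a main promoter. The windows before the starts taken for Gnas and Adcy3 run into annotated exons and are not shown. Each line gives the bases from 121 to 2 before the start taken, on the plus strand. The windows lie at chr17:25717051-25717170 for Gng13, chr10:84917492-84917611 for Ric8b and chr4:155491240-155491359 for Gnb1. Capitals mark matches on either strand to CCCNNGGGA, the core letters of the early B-cell factor site, or to TGACGT, part of the cyclic AMP response element.
Gng13: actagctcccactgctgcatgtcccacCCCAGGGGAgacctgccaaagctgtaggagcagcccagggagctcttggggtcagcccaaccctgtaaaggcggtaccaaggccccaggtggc
Ric8b: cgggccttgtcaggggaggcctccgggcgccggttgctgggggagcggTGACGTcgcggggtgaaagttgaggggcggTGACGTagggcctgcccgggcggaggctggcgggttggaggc
Gnb1: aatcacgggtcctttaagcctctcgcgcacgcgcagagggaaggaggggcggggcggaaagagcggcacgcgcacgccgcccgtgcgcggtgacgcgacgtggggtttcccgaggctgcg
Gng13 has 1 match to CCCNNGGGA, a motif that 2.74% of all 32851 windows of this length hold. Ric8b has 2 matches to TGACGT, and Gnb1 has neither motif. At least 1 match to TGACGT is held by 4.53% of windows, whatever their base composition, and the share with 2 is not given. The Gng13 window shown holds 1 CpG pair, against 13 in Ric8b and 20 in Gnb1. RefSeq gives Gng13 another start, and the window before that one (chr17:25717407-25717526) holds 23 CpG pairs and neither motif. A match describes letters only.

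Library depth was 18802471 to 27793375 counts. Levels are given as CPM, a gene's counts scaled to a common library total after TMM normalization, fold changes are log2 values of OMP_IGF1R over IGF1R_flfl, and a gene was called at an edgeR quasi-likelihood adjusted p under 0.05. Of 17381 genes tested, 8.2% were called, 5.37% lower and 2.83% higher in OMP_IGF1R, and the groups did not overlap for 16.9%. Igf1r, the targeted gene, ranged from 55.5 to 72.9 CPM under the title IGF1R_flfl and from 34.5 to 49.6 CPM under the title OMP_IGF1R. Omp, a marker of mature olfactory neurons, fell from 5386 ± 989 to 1969 ± 224 CPM (SD, n = 4 each) with no overlap. Its change of -1.45 (SE 0.132; edgeR adjusted p = 0.00179) was larger than that of any of the 8 members. OMP is also part of the titles and genotypes, and the labels do not describe the driver allele. Whether the Omp level follows an allele or the neurons was not tested. Single libraries stood apart in markers of neighbouring tissue: bulb and oligodendrocyte markers summed to 1983 CPM in IGF1R_flfl 2 and at most 179 CPM elsewhere, and muscle markers to 523 CPM in OMP_IGF1R 17 and at most 7.14 CPM elsewhere. Gland markers varied within both groups, from 14682 to 35420 CPM in IGF1R_flfl and from 16566 to 32123 CPM in OMP_IGF1R. Their sums were highest in IGF1R_flfl 13 and OMP_IGF1R 17.

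Adcy3, Gnal, Gng13 and Ric8b fell in OMP_IGF1R, which makes 4 of 8 members called lower and 0 higher. Gnb1 was lower without passing the test. Gnas, Arrb2 and Adrbk2 differed by less than the spread between replicates. The median log2 fold change was -0.43 over the members and -0.01 over all genes tested. In bulk tissue, fewer cells of a type and less RNA per cell cannot be told apart. Below, values run in the order of replicates 1, 2, 13 and 3 for IGF1R_flfl and 11, 12, 17 and 18 for OMP_IGF1R.

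Gnal (ENSMUSG00000024524, GRCm38 chromosome 18, 67088336 to 67226792, plus strand) encodes Golf. The IGF1R_flfl libraries held 3037, 2702, 2681 and 3427 CPM, whereas the OMP_IGF1R libraries held 1949, 1790, 2077 and 1932 CPM. Every OMP_IGF1R library lay below every IGF1R_flfl library, and IGF1R_flfl 3 was the highest. Mean levels of 2962 ± 351 and 1937 ± 118 CPM (SD, n = 4 each) resulted, and the fitted change was -0.61 (SE 0.0885; edgeR adjusted p = 0.00614), so that the mean was 34.6% lower.

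Gnas (ENSMUSG00000027523, chromosome 2, 174284320 to 174346744, plus strand) encodes Gs and, from other starts of the same imprinted locus, further proteins. Its levels were 403, 574, 425 and 385 CPM under the title IGF1R_flfl, with 465, 438, 456 and 456 CPM under the title OMP_IGF1R. IGF1R_flfl 2 was above all OMP_IGF1R libraries, and the other 3 IGF1R_flfl libraries were below all of them. The fitted change was 0.02 (95% interval -0.24 to 0.29; edgeR adjusted p = 0.931). Without IGF1R_flfl 2, the library with the high bulb and oligodendrocyte sum, it was 0.18 (edgeR adjusted p = 0.140). The groups then did not overlap, which follows from leaving out the only IGF1R_flfl library above the others. The part of bulb tissue in the Gnas level was not tested.

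Gnb1 (ENSMUSG00000029064, chromosome 4, 155491361 to 155559269, plus strand) encodes a beta subunit used by many cell types. The first group held 2153, 1938, 1996 and 2614 CPM and the second 1651, 1562, 1847 and 1715 CPM. The groups did not overlap, but the change of -0.36 (SE 0.100, 95% interval -0.59 to -0.14) missed the threshold (edgeR adjusted p = 0.058). It passed with DESeq2 (-0.35, adjusted p = 0.0064), with limma voom (-0.32, adjusted p = 0.030) and with edgeR when IGF1R_flfl 2 was left out (-0.40, adjusted p = 0.0348).

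Gng13 (ENSMUSG00000025739, chromosome 17, 25717171 to 25719406, plus strand) encodes the gamma subunit that partners Golf. Its IGF1R_flfl levels were 397, 393, 390 and 488 CPM, and its OMP_IGF1R levels were 258, 232, 324 and 241 CPM. The groups did not overlap, and OMP_IGF1R 17 came nearest to the other group. Means of 417 ± 47.4 and 264 ± 41.8 CPM (SD, n = 4 each) gave a change of -0.66 (SE 0.119; edgeR adjusted p = 0.0124).

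Ric8b (ENSMUSG00000035620, chromosome 10, 84917616 to 85016446, plus strand) encodes the exchange factor. It was at 947, 809, 859 and 1076 CPM in the first group, then at 678, 646, 655 and 647 CPM in the second. The OMP_IGF1R libraries lay close together and all below the other group. The change was -0.49 (SE 0.0894; edgeR adjusted p = 0.013), and the call was lost without OMP_IGF1R 18 (-0.48, edgeR adjusted p = 0.0506).

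Adcy3 (ENSMUSG00000020654, chromosome 12, 4133103 to 4213525, plus strand) encodes the odour cyclase and had the largest fall of the 8 members. IGF1R_flfl libraries held 1848, 1533, 1713 and 2245 CPM, while 1042, 871, 1088 and 947 CPM were measured in OMP_IGF1R. The highest OMP_IGF1R library was well under the lowest IGF1R_flfl library. Group means of 1835 ± 302 and 987 ± 97.2 CPM (SD, n = 4 each) stood 46.2% apart, a change of -0.90 (SE 0.121; edgeR adjusted p = 0.00498).

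Arrb2 (ENSMUSG00000060216, chromosome 11, 70432635 to 70440828, plus strand), the arrestin, was measured at 38.02, 36.6, 41.7 and 47.2 CPM and at 44.1, 40.2, 41.0 and 40.5 CPM in the second group. Adrbk2 (ENSMUSG00000042249, chromosome 5, 112910478 to 113015514, minus strand), the receptor kinase, was measured at 48.5, 48.4, 45.8 and 38.1 CPM and at 46.1, 45.7, 39.9 and 47.5 CPM in the second group. The groups overlapped for both genes, and IGF1R_flfl 3, the highest of its group in Arrb2 and in all members that fell, was the lowest in Adrbk2. The fitted change was 0.02 for Arrb2 (95% interval -0.16 to 0.20; edgeR adjusted p = 0.913) and -0.01 for Adrbk2 (95% interval -0.21 to 0.18; edgeR adjusted p = 0.951).

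**Figure D1:**
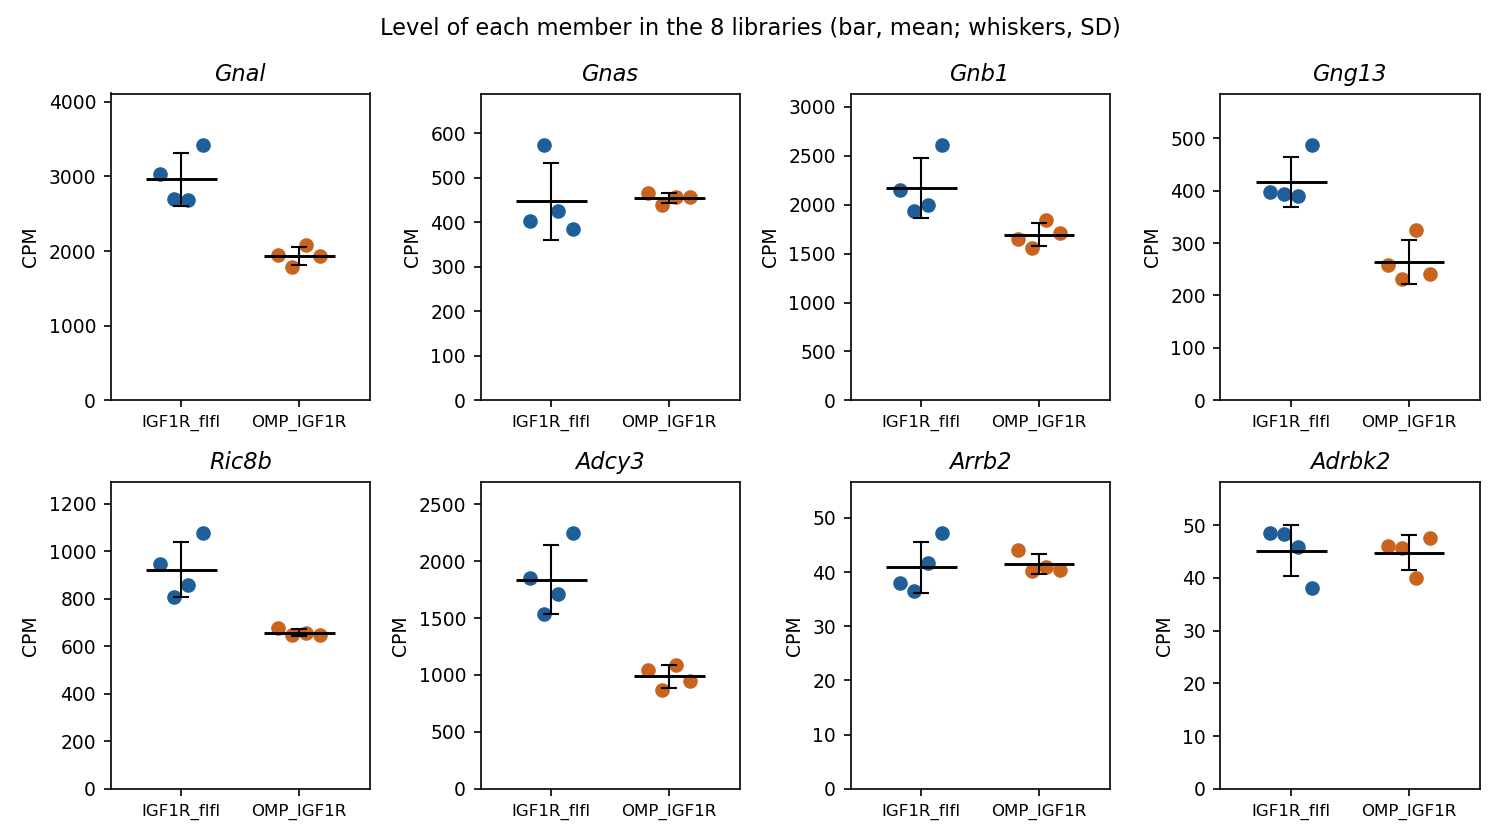
CPM of each of the 8 members (vertical axes from 0) in libraries titled IGF1R_flfl (blue) and OMP_IGF1R (orange), 1 point per library, with the group mean as a bar and the SD as whiskers (n = 4 each). The colours do not overlap for Gnal, Gnb1, Gng13, Ric8b and Adcy3, where Adcy3 has means of 1835 and 987 CPM, and they overlap for Gnas, Arrb2 and Adrbk2.

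Levels of different genes were compared per kilobase of merged exon. In IGF1R_flfl, Gnb1 stood at 692 ± 97.5 CPM per kilobase, Gng13 at 539 ± 61.3, Adcy3 at 365 ± 60.1, Ric8b at 301 ± 38.1 and Gnal at 265 ± 31.4 (SD, n = 4). Gnas followed at 43.0 ± 8.33, Arrb2 at 21.2 ± 2.45 and Adrbk2 at 5.76 ± 0.625 CPM per kilobase. In this order, the means of Gnb1 and Gng13, Adcy3 and Ric8b, and Ric8b and Gnal each lay within the sum of their SDs. Within libraries the order was steadier: Gnb1 was above Gng13, and Ric8b above Gnal, in every library of both groups. Adcy3 was above Ric8b per kilobase in 4 of 4 IGF1R_flfl libraries and in 1 of 4 OMP_IGF1R libraries, where the means were 196 ± 19.3 and 214 ± 4.95. The order between genes depends on the annotated exons and on counts shared with genes on the opposite strand, described next. With those counts taken off, Adcy3 lay below Ric8b per kilobase in every library. In IGF1R_flfl 3, Adcy3 was left with 38331 counts over 5030 exon bases, and Ric8b had 27126 over 3069. Gng13 was left with 8033 counts over 773 bases there, well below Gnb1 (65933 over 3143).

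For Gnal, Gnas, Gng13 and Adcy3 the table lists other genes on the opposite strand that overlap them. Gm20721, a predicted gene inside the Gnas locus, had 94.1% to 96.6% of the Gnas count, and Nespas, an antisense RNA of the locus, had 0.00843% to 0.525%, the most in IGF1R_flfl 2. Cenpo had 31.2% to 35.9% of the Adcy3 count, Chtf18 had 34.4% to 37.1% of the Gng13 count, and Mppe1 had 7.75% to 8.73% of the Gnal count. The strand setting of the counting is not known from the sources used here, so reads of a member and of its partner cannot be told apart. With all counts of Gm20721, Cenpo, Chtf18 or Mppe1 taken off their member, an alternative chosen after seeing the data, Adcy3 changed by -0.93, Gng13 by -0.69 and Gnal by -0.62, all still called (edgeR adjusted p = 0.0046, 0.0113 and 0.0057). Gnas was left with 316 to 885 counts per library, the most in IGF1R_flfl 2, and stood at -0.17 (SE 0.261; edgeR adjusted p = 0.743).

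Each member was then set against a paralog in the same library, as a ratio of CPM that no scaling between libraries can change. The ratio of Gnal to Gnas, Golf over Gs, was 7.54, 4.71, 6.31 and 8.91 under the title IGF1R_flfl, compared with 4.19, 4.08, 4.56 and 4.24 under the title OMP_IGF1R. The groups did not overlap, and the lowest IGF1R_flfl ratio was in library 2, the one with high Gnas. The mean log2 ratio changed by -0.65. A two-sided exact permutation test gave p = 0.0286, the smallest that 70 arrangements allow (adjusted p = 0.04 over 7 ratios). All pairs were chosen with earlier results of these data known, so such a p-value describes the separation and does not test it independently. The separation of Gnal over Gnas did not hold with the counts of Gm20721 and Mppe1 taken off Gnas and Gnal. The ratio in IGF1R_flfl 2 (65131 over 885 counts) then lay below that in OMP_IGF1R 11 (34859 over 394), so the groups overlapped. That version of the ratio was not tested.

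Gng13 over Gng8 moved most. Gng8 encodes the gamma subunit of immature olfactory neurons, and it rose: it ranged from 8.68 to 9.45 CPM in the first group and from 15.0 to 19.5 CPM in the second (log2 0.97, SE 0.0962; edgeR adjusted p = 0.00196). The ratio ran from 42.0 to 53.7 in the first group and from 12.3 to 18.3 in the second, and its mean log2 changed by -1.63. The log2 ratio of Adcy3 to Adcy6, another cyclase, changed by -1.04, that of Ric8b to Ric8 (Ric8a, which serves other alpha subunits) by -0.58, and that of Gnb1 to Gnb2 by -0.50. None of these 4 ratios overlapped between the groups. Each had an exact permutation p of 0.0286 (two-sided, adjusted p = 0.04), the smallest that 4 against 4 libraries allow. Because the pairs were chosen with earlier results known, these p-values describe the separation and are no independent evidence for it. The share of other gene pairs that separate is not given here. The shut-off ratios overlapped: Arrb2 over Arrb1 differed by 0.16 and Adrbk2 over Adrbk1 by -0.11 (exact permutation p = 0.714 and 0.171, adjusted p = 0.714 and 0.2). Arrb1 was at 64.9 CPM in IGF1R_flfl 2 and at 26.8 to 38.4 CPM elsewhere, and without that library the Arrb2 ratio differed by -0.14.

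**Figure D2:**
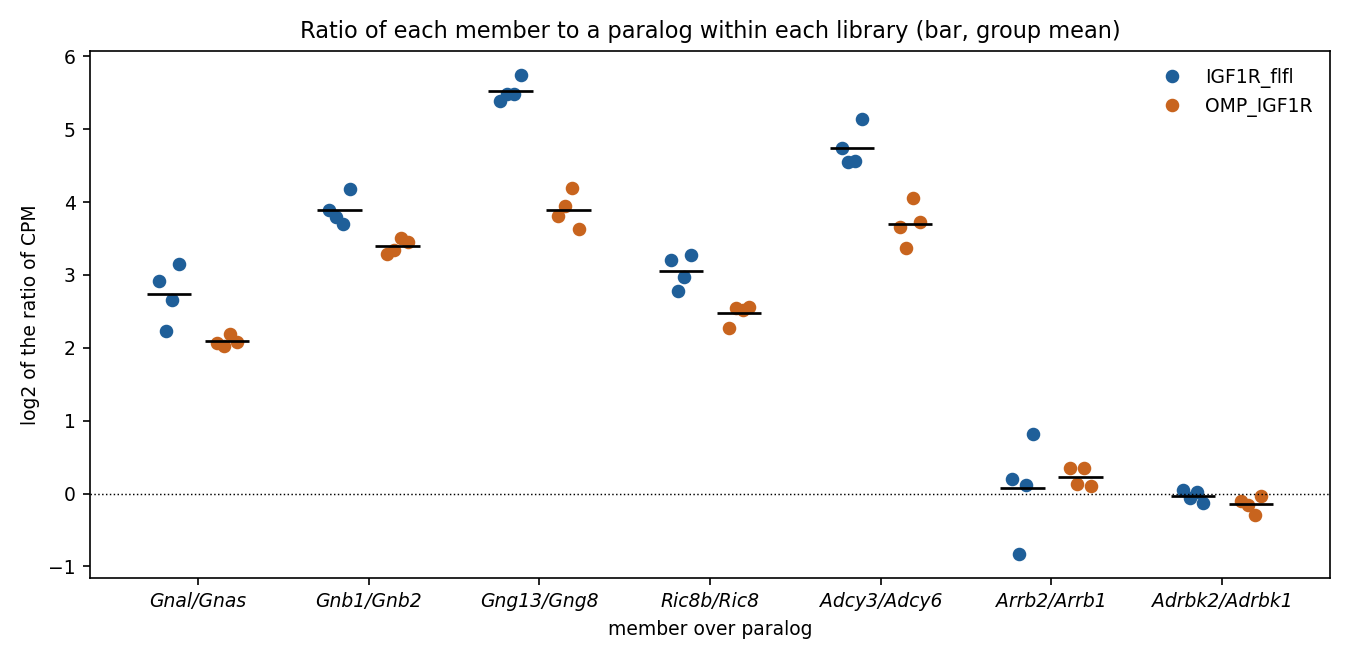
Log2 of the ratio of CPM (vertical axis) for 7 pairs of member and paralog (horizontal axis), 1 point per library, IGF1R_flfl in blue and OMP_IGF1R in orange, with group means as bars. The colours separate in the first 5 pairs, most widely for Gng13 over Gng8 (-1.63), and mix in the pairs of Arrb2 and Adrbk2.

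Apart from Gng8, no paralog was called by edgeR. Gnb2 stood at 0.15 (edgeR adjusted p = 0.140), Adcy6 at 0.16 (0.27), Ric8 at 0.11 (0.496), Adrbk1 at 0.10 (0.35) and Arrb1 at -0.21 (0.638). Gnb2 was called by DESeq2.

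**Figure D3:**
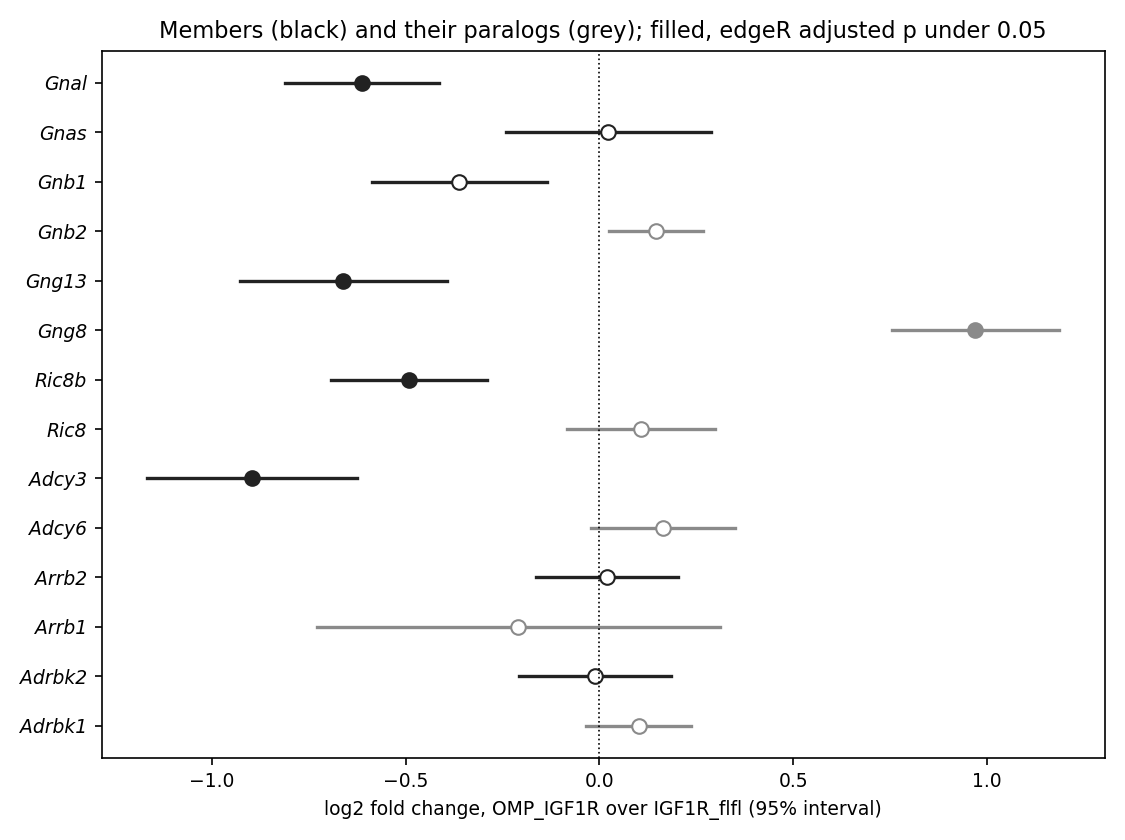
Log2 fold change of OMP_IGF1R over IGF1R_flfl (horizontal axis) with its 95% interval for the members (black) and their paralogs (grey), filled where the edgeR adjusted p was under 0.05. Filled members lie between -0.90 (Adcy3) and -0.49 (Ric8b), and the filled paralog is Gng8 at 0.97.

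Downstream of cyclic AMP, 8 of 18 genes fell and 0 rose (median -0.27). Cnga4 (-1.04) and Cngb1 (-0.78), modulatory subunits of the olfactory channel, fell with Cnga2 (-0.68), its principal subunit, which went from 936 ± 152 to 583 ± 65.5 CPM (SD, n = 4 each). Ano2 (-0.90), the calcium-activated chloride channel, and Pde1c (-0.77), a phosphodiesterase of the cilium, fell as well. Also called were Pde4a (-0.49), a phosphodiesterase, and Prkaca (-0.25), a catalytic subunit of protein kinase A. Among 9 genes of receptor transport and cilia, 4 fell and 0 rose (median -0.39). They were Stoml3 (-0.64), a stomatin-like protein of the cilium, Rtp2 (-0.51) and Rtp1 (-0.42), which carry receptors to the surface, and Bbs4 (-0.39), of the ciliary BBSome. Markers of respiratory ciliated cells moved the same way, with 2 of 8 lower and 0 higher (median -0.26): Ccdc39 (-0.38) and Tekt1 (-0.52) were called. Their sums overlapped, at 588 to 838 CPM in the first group and 556 to 655 CPM in the second with no marker at 0, and their part in the cilia genes was not tested.

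Other genes of the same families were counted in the same way, beside the 8.2% called among all 17381 genes tested. Of 13 other alpha subunits tested, 0 were called by edgeR or DESeq2 and 1 by limma voom, with 3 at an unadjusted p under 0.05 and a median of 0.04. The gene called by voom was Gna15, at 1.19 and 1.87 CPM (edgeR adjusted p = 0.0506). Of 14 other beta and gamma genes, 2 rose and 0 fell (median 0.06): Gng8, and Gnb3 (0.82; edgeR adjusted p = 0.0296), a beta subunit found in taste and tuft cells, from 0.813 to 1.44 CPM. DESeq2 called 2 higher and 1 lower in this list: it did not call Gnb3, and it called Gnb2 higher and Gnb5 lower (edgeR -0.30, adjusted p = 0.082, with no overlap). The tuft cell genes Avil, Trpm5 and Plcb2 rose too, 3 of 8 tested vomeronasal and tuft markers. Pou2f3, also of that list, stood at 0.05 (edgeR adjusted p = 0.895). The list summed to 417 to 441 CPM in the first group and 457 to 473 CPM in the second, with Vmn1r1 at 0. Gnao1 (means 239 and 237 CPM) and Gnai2 (134 and 147 CPM) make up most of these sums. The part of tuft cells in Gnb3 was not tested. Of 7 other cyclases tested, 0 were called by edgeR, DESeq2 or limma voom, 1 had an unadjusted p under 0.05, and the median was 0.01. Of 7 other arrestins, receptor kinases and Ric8, 1 rose and 0 fell (median -0.13): Grk6 (0.39; edgeR adjusted p = 0.0109), a receptor kinase, from 30.8 ± 1.12 to 40.3 ± 3.28 CPM (SD, n = 4 each).

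**Figure D4:**
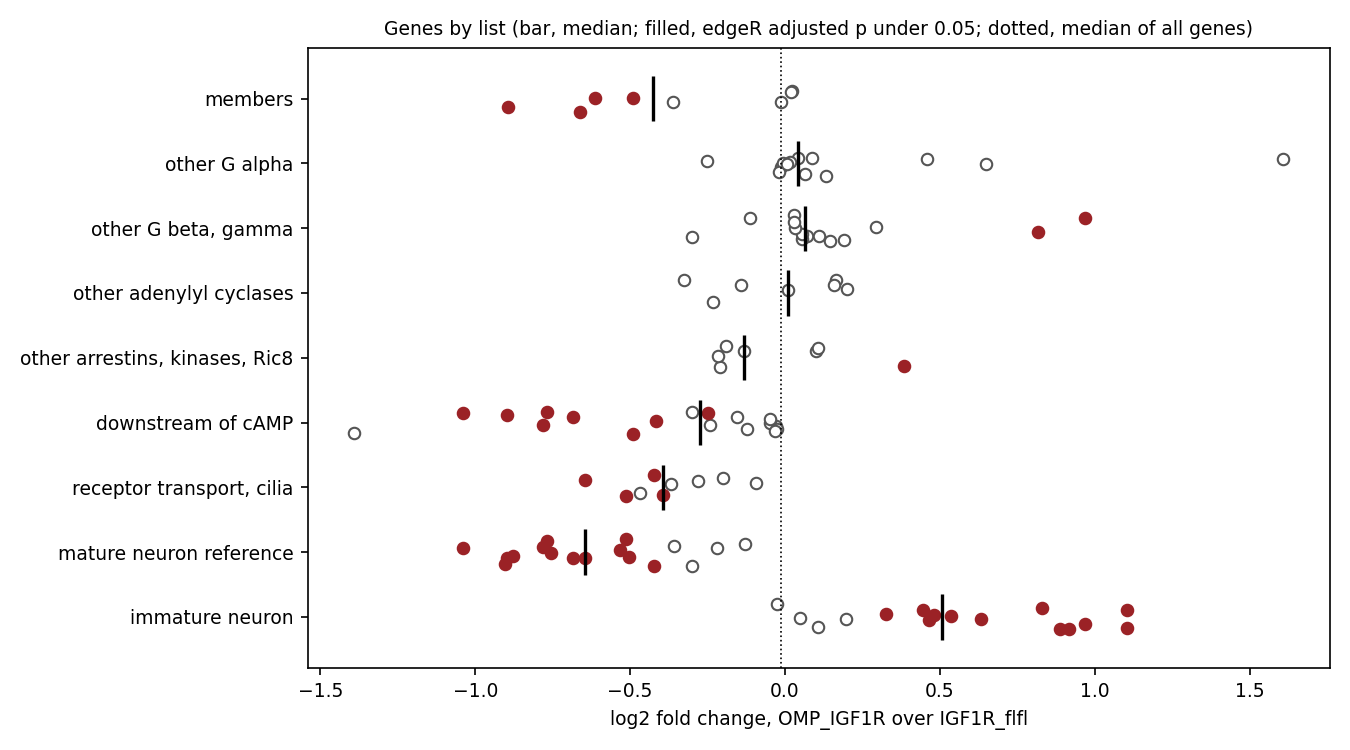
Log2 fold change of each tested gene (horizontal axis) by list, filled where the edgeR adjusted p was under 0.05, with the list median as a bar and the median of all genes as a dotted line. Filled points lie on the lower side downstream of cAMP (8 of 18), in receptor transport and cilia (4 of 9) and in mature neurons (13 of 17), and on the higher side among immature neuron markers (12 of 16).

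Markers of mature neurons moved with the members. Of 17 mature neuron genes, which include no member and not Omp but share 6 genes with the list downstream of cyclic AMP and 3 with receptor transport and cilia, 13 fell and 0 rose (median -0.64). Their summed level was 9819 to 12842 CPM in the first group against 6389 to 7474 CPM in the second, with no marker at 0. Immature neuron markers, Gng8 among them, were higher for 12 of 16, with sums of 1608 to 1792 and 2227 to 2458 CPM. Cycling markers were higher for 7 of 8 and horizontal basal cell markers for 4 of 8, while sustentacular sums overlapped (14811 to 17652 and 14864 to 16038 CPM). The part of these cell types in the members' values was not tested.

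With the libraries scaled to the 17 mature neuron genes instead, which moves the median of all genes to 0.58 and the calls over all genes to 13796 higher and 113 lower (492 and 933 under TMM), Gnal stood at -0.01 (SE 0.057; edgeR adjusted p = 0.886), Gng13 at -0.06 (0.498) and Ric8b at 0.12 (0.176). None of the 3 was called on that scale. Adcy3 stood at -0.29 (SE 0.078; edgeR adjusted p = 0.0059) and Gnb1 at 0.24 (edgeR adjusted p = 0.0041), both called. Of the 17 reference genes themselves, chosen with earlier results known, 3 were called higher and 5 lower on that scale. A call there thus does not set a member apart from mature neuron genes. Gnas, Arrb2 and Adrbk2 stood at 0.61, 0.63 and 0.58, close to the shift of all genes. On that scale the list downstream of cyclic AMP had 11 genes called higher and 4 lower, and receptor transport and cilia had 5 higher and 0 lower.

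**Figure D5:**
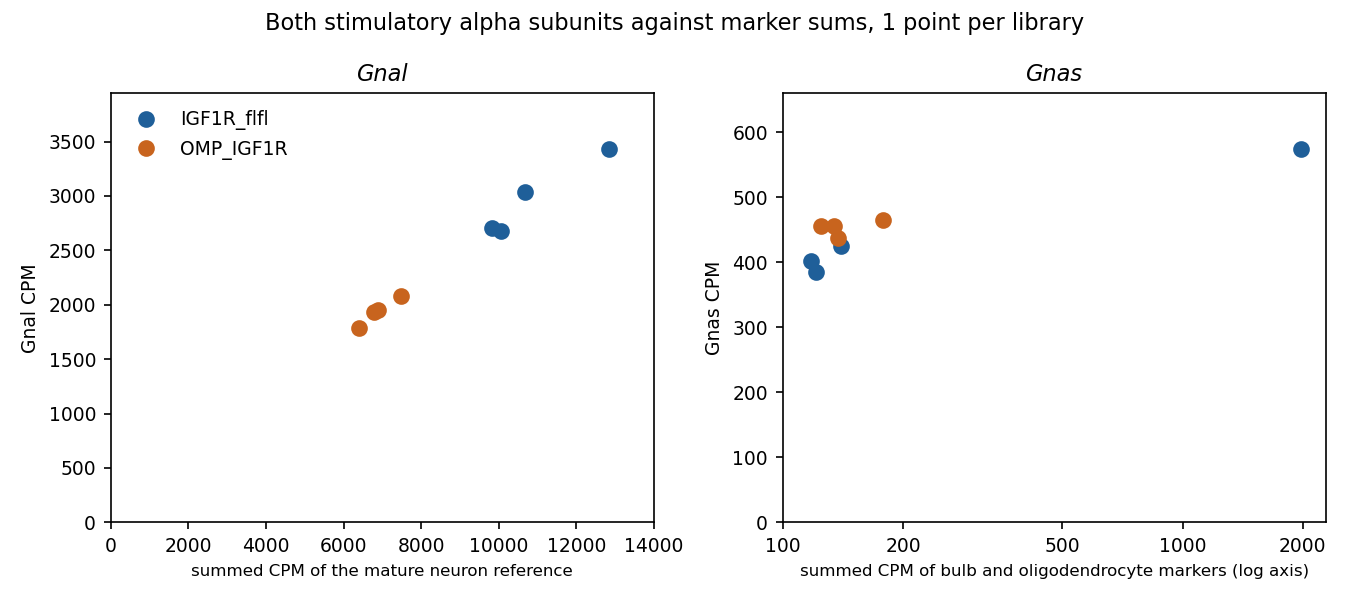
Left, Gnal CPM (vertical axis, from 0) against the summed CPM of the 17 mature neuron genes; right, Gnas CPM against the summed CPM of bulb and oligodendrocyte markers on a log axis, 1 point per library, IGF1R_flfl in blue and OMP_IGF1R in orange. Gnal is lowest in the 4 libraries with the lowest mature neuron sums (6389 to 7474 CPM), and the highest Gnas level (574 CPM) is in the library with the highest bulb sum (1983 CPM).

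Genes whose log level over the 8 libraries followed a member most closely were sought among 14870 genes. For Gnal they were Gldc, Phospho1 and Abi3, with Pearson r of 0.997, 0.996 and 0.996, and of 0.981, 0.971 and 0.971 for deviations from the group means. For Adcy3 they were Rtp2, Cnga4 and Omp, with r of 0.995, 0.994 and 0.994, and of 0.965, 0.957 and 0.995 for the deviations. For Gnas they included Gm20721 (0.999) and Iglon5 (0.990). Gm20721 lies on the opposite strand within the locus, and its reads cannot be told apart from those of Gnas, so the same reads may enter both. These are descriptions over libraries that share the group difference and, for Gnas, the high library IGF1R_flfl 2.

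In the authors' deposited table, whose header does not state the direction, the log2 fold changes were -0.80 for Adcy3, -0.59 for Gng13, -0.57 for Gnal and -0.46 for Ric8b. The DESeq2 fit made here, of OMP_IGF1R over IGF1R_flfl, gave them -0.89, -0.65, -0.61 and -0.48. The authors' signs are thus those of OMP_IGF1R over IGF1R_flfl. The authors' deposited table has Gnb1 at -0.33 with an adjusted p of 0.00611. Arrb2, Gnas and Adrbk2 are at 0.02, 0.03 and -0.0038 in the authors' deposited table.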

How the data were processed

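RNA of 8 libraries of olfactory epithelium was sequenced as paired reads from a stranded kit, per the labels' protocols. The submitters' processing notes name Trim Galore 0.3.7, TopHat2 2.0.14 with SAMtools 1.2, the build GRCm38 (mm10), and DESeq2 without a version. How reads were counted, and with which strand setting, is not given in the sources used here. The deposited table holds raw counts per gene. The authors' deposited table of results holds a mean normalized signal, log2 fold changes with errors, a test score and p-values, used for description alone. Groups follow the titles. Text attached to 23 identifiers was trimmed.

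Counts were fitted over all genes with edgeR 4.0.16 in R 4.3.3 (quasi-likelihood F-test, TMM, filterByExpr, Benjamini-Hochberg adjustment), without covariates. No library pair within a group was a copy: the mean chi-square over genes was 11.8 or more. The members, paralog pairs and lists were chosen with earlier results of these data known. Named genes were all members, their paralogs, the called genes of each related list (the 6 of smallest p where there were more) and the 3 genes most alike to Gnal, Gnas and Adcy3, with a mean log2 CPM of at least 1. Prkaca, Pde4a, Gna15, Gnb5, the tuft and ciliated cell genes and the overlapping genes were named after their values were seen. Some genes that this rule names are not reported here. Exon lengths came from GENCODE M21 basic. Paralog ratios were tested by exact permutation (SciPy 1.17.1).

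The edgeR fit was tested on simulated data for OMP_IGF1R against IGF1R_flfl with 200 changed genes among 17263. It called 43.1% of the genes changed by 0.5 (log2) and 74.4% of those changed by 1, with 4.2% of calls false. Many more genes were called in the data (1425 of 17381), so these shares hold for the simulated setting only. Alternatives were DESeq2 1.42.0, limma 3.58.1 (voom with sample weights), other scalings and filters, and libraries left out.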

Additional observations from a re-analysis of the deposited data

Results flagged for a closer look

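In each group of 4 libraries, a highest or lowest value was marked when its gap to the nearest other, as a share of the group's range, exceeded the 95% critical value of Dixon's test. Of 30 groups of values examined (8 members and 7 ratios in both groups), 2 were marked, where chance marks about 1 in 20. Gng13 stood at 487.8 CPM in IGF1R_flfl 3, while its 3 companions held 390 to 397 CPM. The log2 ratio of Ric8b to Ric8 stood at 2.27 in OMP_IGF1R 11, below its companions, and Ric8 itself was highest in that library at 141 CPM.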

How the results depend on the processing

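No paired analysis was possible because the 2 title groups share no replicate number. Adcy3, Gnal, Gng13 and Ric8b kept their direction and call under DESeq2, voom, DESeq2 size factors, upper-quartile factors and both filters, as did Adcy3, Gnal and Gng13 with overlapping counts taken off and in each fit without 1 library. Leaving out 1 library gave -0.96 to -0.78 for Adcy3, -0.65 to -0.53 for Gnal, -0.77 to -0.57 for Gng13, -0.54 to -0.40 for Ric8b and -0.40 to -0.25 for Gnb1. It gave -0.037 to 0.18 for Gnas, -0.019 to 0.10 for Arrb2 and -0.079 to 0.049 for Adrbk2, 3 to 5 members called and 569 to 1477 genes called (1425 with all libraries). The count of genes called was 569, 613 and 724 without OMP_IGF1R 18, 12 and 11, and 841 and 886 without IGF1R_flfl 1 and 3. Gnb1 was called by voom (-0.32) and DESeq2 (-0.35) and without IGF1R_flfl 2 and OMP_IGF1R 17 (-0.44). Without both libraries Arrb2 stood at -0.013 and Adrbk2 at 0.086, and Adrbk2 stood at 0.020 with upper-quartile factors; none of these was called. With overlapping counts taken off, Gnas stood at -0.17.

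Scaling to mature neuron genes moves all genes up by construction: 13909 genes were called, Gnal (-0.0091), Gng13 (-0.063) and Ric8b (0.12) lost their calls, and Gnb1 (0.24), Gnas (0.61), Arrb2 (0.63) and Adrbk2 (0.58) were called higher. It called, all higher, 11 other alpha subunits, 12 other beta or gamma genes, 4 other cyclases and 5 other arrestins, kinases or Ric8. Downstream of cAMP it called 15 genes (11 higher, 4 lower), in receptor transport and cilia 5 higher, where 4 were lower under TMM, and 8 of the mature neuron list itself (3 higher, 5 lower). Without IGF1R_flfl 2 and OMP_IGF1R 17, 1 other beta or gamma gene was called. Ratio tests cannot pass with fewer libraries (smallest p 0.0571 for 3 against 4 and 0.1 for 3 against 3). Without 1 library the ratios changed by -0.82 to -0.51 (Gnal), -0.57 to -0.40 (Gnb1), -1.73 to -1.54 (Gng13), -0.68 to -0.51 (Ric8b), -1.16 to -0.92 (Adcy3), -0.14 to 0.40 (Arrb2) and -0.15 to -0.062 (Adrbk2). Without both libraries they changed by -0.85, -0.57, -1.75, -0.69, -1.23 and, for Arrb2, -0.18.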
